A study of Bos taurus with 30 samples.

Results

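Skin of tick-resistant cattle sampled 24 h after tick infestation was compared with skin of the same group sampled before it (0 h), on 6 and 5 Affymetrix bovine arrays. These 11 arrays were chosen by the phenotype and time in their labels, with no measured value used, out of 30 arrays in the series. Every animal came from an F2 population of Gyr (Bos indicus) crossed with Holstein (Bos taurus), so that alleles of both breeds segregated among the animals. Each array held total RNA of 1 biopsy from the feeding site of 1 animal, numbered 01 to 06 at 24 h and 01 to 05 at 0 h. The series also held resistant skin at 48 h (5 arrays) and susceptible skin at 0 h (3), 24 h (6) and 48 h (5). The age of the animals, the tick species and the way resistance was scored are not given in the sources used here. The comparison asks which transcripts differ within a day of attachment in animals able to resist ticks.

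A feeding tick cuts through the epidermis into the upper dermis and injects saliva that holds back clotting, inflammation and itch. Resistant cattle are known for an early inflammatory reaction at the bite, with granulocytes, mast cells, basophils and T cells drawn into the skin, and for grooming ticks away. Keratinocytes, fibroblasts, vessels, hair follicles and sebaceous glands at the site are all sampled by a biopsy. In such bulk tissue, fewer cells of a type and less RNA per cell cannot be told apart.

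Values are log2 signals, so a difference of 1 is 2-fold, and array medians of the 30 arrays lay between 7.17 and 7.40. Pairs among the 11 arrays correlated at 0.906 to 0.972 over the 13809 kept probe sets (those at or above the array median in at least 3 arrays). Skin markers bore out the label: the basal keratins KRT5 and KRT14, the desmosomal cadherin DSG1, the collagens COL1A1, COL1A2 and COL3A1 and the fibroblast proteoglycan DCN were at or above the array median on all 11 arrays. Blood RNA was low, with the haemoglobin HBA below the median on every array and HBB at or above it on 1. Markers of other cells were mixed. Of the T cell genes, CD3E reached the median on 10 arrays, CD3D and CD3G on 6 each and CD2 on 2. Of the mast cell markers, the receptor KIT, which melanocytes also carry, reached it on 11, the IgE receptor chain FCER1A on 3 and the tryptase TPSB2 on 1. Of the B and plasma cell genes, JCHAIN did so on 11, MS4A1 on 6 and CD79A on 0. The melanocyte genes PMEL, TYR, TYRP1 and DCT reached it on 9, 7, 7 and 0 arrays, and the adipocyte genes LPL and ADIPOQ on 11 and 0. The macrophage genes CD68, AIF1 and C1QA were at or above it on all 11. RNA quality varied between arrays: the difference between the 3' and 5' probe sets of the actin control was 4.17, 3.51, 3.95, 2.50, 1.48 and 5.76 in animals 01 to 06 at 24 h, against 2.89, 1.92, 2.63, 3.43 and 2.62 in animals 01 to 05 at 0 h. For actin the 24 h arrays spanned the wider range, with both the lowest and the highest value. The GAPD control ran from 0.34 to 1.25 at 24 h and from 0.19 to 0.76 at 0 h. The EF1A control ran from -0.75 to 0.88 at 24 h and, more widely, from -1.31 to 1.07 at 0 h. The mean of the 3 controls ran from 0.75 to 1.99 at 24 h and from 0.55 to 1.57 at 0 h.

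The animal numbers of 3 of the 5 arrays at 0 h were uncertain in the data. XIST, the RNA that coats the inactive X chromosome of females, read 11.60 on the 24 h array and 2.05 on the 0 h array labelled animal 03. For animal 05 it read 4.17 at 24 h and 11.54 at 0 h. For animal 04 it was low at both times, with 3.42 at 24 h and 4.88 at 0 h. Deviations from the group mean over the kept probe sets, which carry the animal's own genotype and tissue makeup, correlated between the 24 h and 0 h arrays at 0.47 for animal 01 and 0.45 for animal 02. They correlated at -0.16, 0.07 and -0.11 for animals 03, 04 and 05. The 0 h array labelled 03 was instead closest to the 24 h array of animal 04 (0.61), and the one labelled 05 to that of animal 06 (0.69). The 0 h array labelled 04 had no clear partner. Its highest value was 0.20 against animal 03, whose 24 h array was high in XIST. The next was 0.13 against animal 05, whose 24 h array was low in XIST. Groups were therefore compared without pairing. The fit was repeated without these 3 arrays, which leaves 2 at 0 h, for 63 genes and probe sets and for the gene lists, and values that moved by over 1.5 times and by over 0.1 are given.

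**Figure D1:**
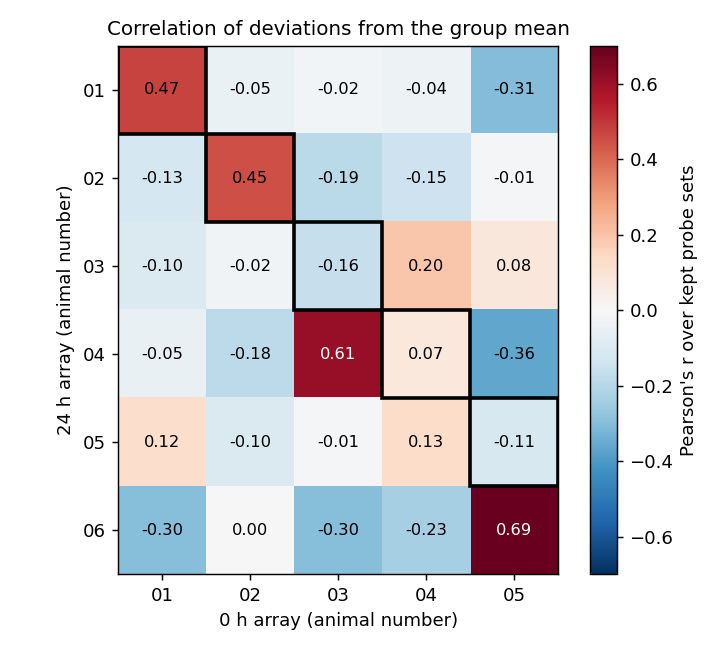
Pearson's r, over the kept probe sets, between each resistant 24 h array (rows) and each resistant 0 h array (columns), after the mean of its own group was subtracted. Black frames mark the same animal number: 01 and 02 stand out at 0.47 and 0.45, while the highest values of the 0 h arrays labelled 03 (0.61) and 05 (0.69) lie outside their frames.

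Resistant skin at 24 h differed little from resistant skin at 0 h, and no probe set passed the threshold. limma called 0 of 13809 kept probe sets at an adjusted p under 0.05 (0% of those tested). The smallest adjusted p was 0.447. At an unadjusted p under 0.05 there were 652 probe sets (4.72%), of which 379 were higher (2.74%) and 273 lower (1.98%) at 24 h. With no difference anywhere, 690.45 of 13809 would be expected at that p. In 94 probe sets (0.681%) the 24 h and 0 h arrays did not overlap, with 44 higher (0.319%) and 50 lower (0.362%). Measured differences were small, with a median size of 0.12 and 96.4% of them within 0.5 of 0. Only 37 probe sets were higher by more than 1, and 9 lower by more than 1.

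The precision of the design bears on these counts. The median SE of a difference was 0.19, and its 95% interval reached a median of 0.39 to either side. That interval lay wholly inside 2-fold in either direction for 12359 probe sets, 89.5% of those kept. For these, a 2-fold or larger difference between the group means lies outside the interval. Nothing in the labels says that 2 arrays of a group came from 1 animal, so the 24 h and the 0 h arrays were read as separate animals within each time.

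Probe sets with an unadjusted p under 0.05 differed by direction in how they are annotated. Of the 379 higher at 24 h, 43.8% had no gene symbol and 40.6% had a name with an A before the last digit (as in A1_at) where most have an S. Of the 273 lower at 24 h, 30.8% had no symbol and 14.7% had such a name. Over all kept probe sets the shares were 37.7% and 29.0%. The part of the array's annotation in these counts was not tested.

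Among named genes with the smallest p, the higher ones included organelle and trafficking genes. MFF, which recruits the fission machinery to mitochondria, read 7.37, 7.64, 7.06, 7.59, 7.65 and 7.55 in animals 01 to 06 at 24 h and 5.94, 6.40, 6.34, 5.59 and 6.99 in animals 01 to 05 at 0 h. The groups did not overlap, although the gene lay below the array median on all 5 arrays at 0 h and 1 at 24 h. The difference was 1.22 ± 0.28 (SE), a 2.34-fold higher level, with an adjusted p of 0.447 by limma. C7H5orf15, named for an open reading frame, averaged 7.65 ± 0.29 at 24 h and 6.61 ± 0.50 at 0 h (SD, n = 6 and 5). Its difference of 1.04 ± 0.23 (SE) came with 4 of 6 arrays at 24 h above every array at 0 h. C7H5orf15 lay below the array median on 4 of 5 arrays at 0 h and on 1 at 24 h.

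MAGT1, a magnesium transporter and subunit of the oligosaccharyltransferase that glycosylates new proteins in the ER, read 11.32, 11.14, 11.08, 11.16, 11.32 and 10.98 at 24 h and 10.91, 10.82, 10.62, 10.52 and 10.46 at 0 h. All 6 arrays at 24 h lay above all 5 at 0 h, by a mean of 0.50 ± 0.12 (SE). Without the 3 arrays of uncertain number the difference was 0.30. EXOC1, a subunit of the exocyst that tethers secretory vesicles, was read by 3 kept probe sets with differences of 0.56, 0.58 and 0.28. On the second of these it read 8.63, 8.74, 8.71, 8.84, 8.73 and 8.71 at 24 h and 7.81, 8.10, 8.42, 8.26 and 8.18 at 0 h. In the first and second of these the groups did not overlap. TMEM167B, a small membrane protein of the secretory pathway, averaged 10.50 ± 0.08 at 24 h and 10.09 ± 0.17 at 0 h (SD, n = 6 and 5), again with no overlap.

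Genes of RNA handling and of the histone supply were also among them. RBM45, an RNA-binding protein, read 9.98, 9.89, 10.05, 9.82, 9.84 and 10.21 at 24 h and 8.77, 9.71, 9.36, 9.38 and 9.51 at 0 h. The groups did not overlap, and the 0 h array of animal 01 was the lowest of the 11. The difference was 0.62 ± 0.16 (SE), or 0.48 without that array. HNRNPD, which binds AU-rich elements and speeds or slows the decay of messages that hold them, averaged 11.94 ± 0.13 at 24 h and 11.46 ± 0.21 at 0 h (SD, n = 6 and 5). NASP, a chaperone of histones, differed by 0.58 ± 0.15 (SE), and RPS12, a protein of the small ribosomal subunit, by 0.70 ± 0.19 (SE). The probe sets given for RPS12, MAGT1 and USP15, and the first of EXOC1, are of the A kind. So are those given for SNURF and SIVA1 among the lower genes. USP15, a deubiquitinase, read 8.06, 8.24, 7.77, 8.47, 8.35 and 8.65 at 24 h and 7.63, 7.51, 7.59, 6.71 and 7.75 at 0 h. Its groups did not overlap, with the 0 h array of animal 04 far below the rest. KYAT3, which turns kynurenine into kynurenic acid, read 10.29, 9.71, 10.22, 10.06, 9.76 and 10.20 at 24 h and 9.45, 9.63, 9.76, 9.54 and 9.44 at 0 h, with the 24 h arrays of animals 02 and 05 inside or next to the range at 0 h. Every adjusted p by limma among these genes was between 0.447 and 0.545.

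The lower genes with the smallest p included factors of splicing and of protein folding. SMU1, a factor of the activated spliceosome, read 9.11, 9.10, 9.37, 9.01, 9.18 and 9.04 at 24 h and 9.65, 9.64, 9.57, 9.45 and 9.53 at 0 h. No array at 24 h reached the lowest at 0 h, and the difference was -0.43 ± 0.10 (SE) with an adjusted p of 0.447 by limma. RBM4, a regulator of alternative splicing, read 10.50, 10.33, 10.46, 10.27, 10.32 and 10.39 at 24 h and 10.77, 10.92, 10.52, 10.88 and 11.26 at 0 h, and SNURF, which shares transcripts with the small ribonucleoprotein gene SNRPN, read 9.76, 9.52, 9.68, 9.56, 9.67 and 9.57 at 24 h and 10.06, 9.9961, 9.97, 10.13 and 10.06 at 0 h. Neither gene's groups overlapped. For RBM4 the gap between the lowest array at 0 h and the highest at 24 h was narrow.

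STIP1, the cochaperone that hands client proteins from HSP70 to HSP90, read 10.57, 10.57, 10.46, 10.43, 10.73 and 10.77 at 24 h and 11.44, 10.85, 11.12, 11.18 and 11.42 at 0 h. The groups did not overlap, and the difference was -0.61 ± 0.15 (SE, adjusted p of 0.500 by limma), a level 1.53-fold lower at 24 h. EPHX1, a microsomal enzyme that hydrolyses epoxides, read 9.25, 9.72, 9.66, 9.75, 9.24 and 9.33 at 24 h and 10.46, 10.28, 10.47, 10.37 and 9.49 at 0 h. Only the 0 h array of animal 05 lay within the range at 24 h. The difference was -0.72 ± 0.20 (SE), and -0.90 without that array.

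The other lower genes of this rank had varied roles. ADPGK, an ADP-dependent glucokinase, averaged 8.03 ± 0.05 at 24 h and 8.38 ± 0.13 at 0 h (SD, n = 6 and 5). EIF3D, a cap-binding subunit of a translation initiation factor, averaged 11.64 ± 0.14 at 24 h and 11.97 ± 0.14 at 0 h. BRK1, a small subunit of the WAVE complex that starts actin branches, averaged 10.92 ± 0.12 at 24 h and 11.21 ± 0.08 at 0 h. The groups of these 3 genes did not overlap. ITGB5, the integrin chain of a vitronectin receptor, differed by -0.44 (-0.70 without the 3 arrays of uncertain number), SIVA1, a proapoptotic adaptor, by -0.55, BANP, a DNA-binding protein, by -0.61, and MRPL14, of the large mitochondrial ribosomal subunit, by -0.46. Their groups overlapped. The adjusted p by limma of the 12 lower genes lay between 0.447 and 0.553.

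Many of the named genes had several probe sets, and their others mostly differed by less. Of 38 genes named for a small p or a large difference, 19 had other kept probe sets, 24 in all. Of those 24, 23 differed by less than the one described, 5 had the opposite sign, 1 had an unadjusted p under 0.05 (the third of EXOC1) and in 0 did the groups separate. For MFF the other probe set averaged 11.2 at 24 h and 11.1 at 0 h, far brighter than the one described, and differed by 0.10 ± 0.14 (SE). That of C7H5orf15 was also brighter, with 10.5 at 24 h and 10.3 at 0 h, and differed by 0.16 ± 0.11 (SE). Those of MAGT1 differed by 0.11 and 0.11, those of TMEM167B by -0.06 and -0.01, and those of RPS12 by 0.04 and 0.0029. The other probe set differed by 0.17 for RBM45, -0.0057 for NASP, -0.02 for USP15 and -0.19 for SMU1. It differed by -0.44 for SNURF, -0.01 for ITGB5, -0.14 for MRPL14 and -0.03 for BANP. STIP1, RBM4, EPHX1, ADPGK, EIF3D, BRK1, SIVA1, HNRNPD and KYAT3 had 1 kept probe set each.

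**Figure D2:**
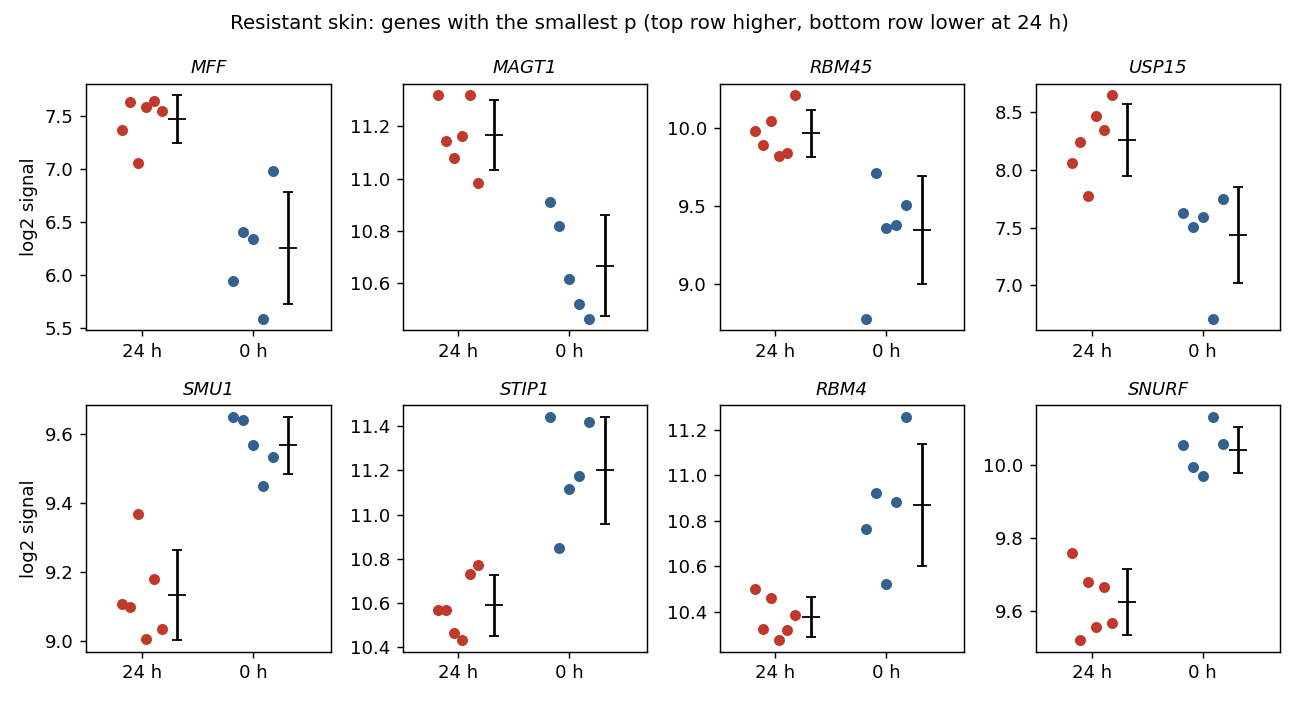
Log2 signal, on the probe set described, of 8 of the named genes with the smallest p, with each array as a point (24 h left in red, 0 h right in blue) and the mean with its SD beside it in black. The 8 shown are all genes whose groups do not overlap, as in 0.681% of kept probe sets, so the separation comes with the choice. C7H5orf15, KYAT3 and HNRNPD, whose groups overlap, had a smaller p than USP15 and are not shown. Of the 8, MFF differs most, by 1.22, and SNURF least, by -0.42.

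Several of the largest differences were carried by some of the animals only. FAR2, which reduces fatty acids to the fatty alcohols of sebaceous waxes, read 11.09, 8.39, 11.23, 5.44, 6.44 and 10.17 in animals 01 to 06 at 24 h and 6.96, 5.21, 5.05, 6.12 and 5.84 in animals 01 to 05 at 0 h. Animals 01, 03 and 06 at 24 h stood far above every array at 0 h, animal 02 stood between, and animals 04 and 05 lay within the range at 0 h. The difference was 2.96 ± 1.13 (SE), with a 95% interval of 0.65 to 5.27, an unadjusted p of 0.0139 and an adjusted p of 0.983 by limma.

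FGFBP1, a secreted carrier that releases fibroblast growth factors from the matrix, read 11.48, 8.70, 11.10, 6.66, 4.42 and 10.61 at 24 h and 6.59, 4.82, 2.61, 5.13 and 5.52 at 0 h. The same animals 01, 03 and 06 were the highest, and the difference of 3.89 ± 1.52 (SE) was the largest of any kept probe set. FAR2 and FGFBP1 each lay below the array median on all 5 arrays at 0 h and on 2 of 6 at 24 h, so both are set against values near background. KRT79, a keratin of the duct that joins hair follicle and sebaceous gland in mouse, read 7.17, 5.06, 7.40, 4.53, 2.04 and 6.61 at 24 h and 1.87, 2.97, 2.91, 2.95 and 2.44 at 0 h. It lay below the array median on all 5 arrays at 0 h and on 5 of 6 at 24 h, so that its values at 0 h are near background.

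PLIN2, the coat protein of lipid droplets, read 12.23, 9.66, 11.08, 9.24, 8.60 and 10.97 at 24 h and 9.60, 8.88, 8.72, 8.88 and 8.89 at 0 h. ACSL1, which activates long-chain fatty acids, read 12.94, 11.88, 12.71, 11.69, 11.33 and 12.09 at 24 h and 11.19, 10.88, 11.66, 11.61 and 10.79 at 0 h. ELOVL4, the elongase of very long-chain fatty acids of the skin barrier and glands, read 12.30, 10.04, 11.49, 8.78, 10.27 and 11.49 at 24 h and 9.92, 9.40, 9.55, 9.75 and 9.69 at 0 h, with an unadjusted p of 0.0759. In each of the 3, animals 01, 03 and 06 were the highest at 24 h. Animals 04 and 05 lay in or next to the range at 0 h for PLIN2 and ACSL1, and for ELOVL4 animal 04 lay below that range and animal 05 above it. Of the 24 h arrays, those of these 3 animals also had the 3 highest 3' to 5' differences of the actin control. This did not hold for the GAPD and EF1A controls, and animal 03 had the lowest GAPD value, at 0.34. The mean of the 3 controls was 1.22 in animal 03 and 1.30 in animal 02. With a term for the 3' to 5' difference of 3 controls the FAR2 difference was 2.63 and that of FGFBP1 3.54. The part of gland content in the biopsies was not tested.

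The sebaceous and skin lipid list as a whole was less shifted. Of its 10 measured genes 7 were higher and 3 lower, with a median of 0.10, beside 46.8% higher and a median of -0.01 over all 7016 genes. ACSL1, FAR2 and PLIN2 had an unadjusted p under 0.05, against 4.58% of all genes in either direction and 2.32% in the higher one. SOAT1, which esterifies cholesterol, differed by 0.55 ± 0.30 (SE). The fatty acid synthase FASN (0.18), the desaturase SCD (0.02) and the elongase ELOVL5 (0.01) differed by less than their SE of 0.29, 0.28 and 0.18. The cholesterol synthesis enzymes SQLE (-0.31) and HMGCS1 (-0.29) were measured lower at 24 h, with unadjusted p of 0.176 and 0.306. These last 6 genes are named after their values were seen.

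**Figure D3:**
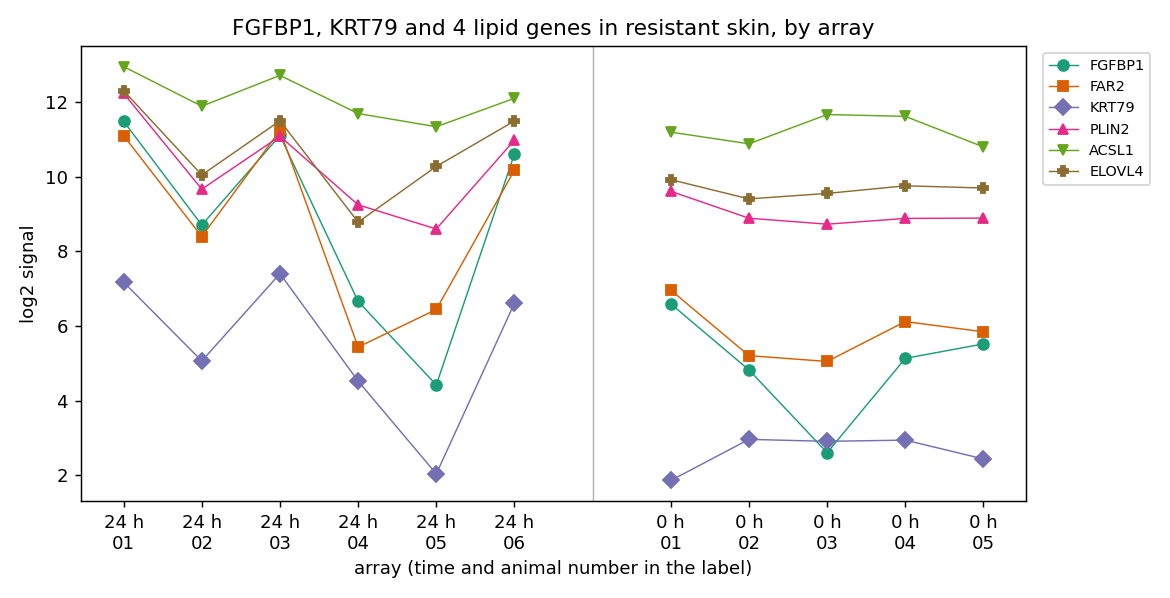
Log2 signal of FGFBP1, FAR2, KRT79, PLIN2, ACSL1 and ELOVL4 on the 6 resistant 24 h arrays (left) and the 5 resistant 0 h arrays (right), by the animal number in the label; lines join the values of a gene within a time. Animals 01, 03 and 06 at 24 h are the highest in all 6 genes. Animals 04 and 05 at 24 h lie within the range at 0 h for FAR2, at 5.44 and 6.44, but animal 04 lies above it for KRT79, at 4.53, and below it for ELOVL4, at 8.78.

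Other large differences concerned muscle, matrix and signalling genes. DES, the intermediate filament of muscle cells, read 10.86, 10.99, 11.40, 10.75, 9.20 and 10.52 at 24 h and 10.50, 9.11, 9.15, 9.37 and 8.26 at 0 h, a difference of 1.34 ± 0.60 (SE, unadjusted p of 0.0350), or 0.81 without the 3 arrays of uncertain number. The 24 h array of animal 05 and the 0 h array of animal 01 crossed into the other group's range. MAPK6, an atypical MAP kinase, read 9.12, 8.76, 8.78, 8.56, 9.38 and 8.35 at 24 h and 7.80, 7.15, 8.19, 6.84 and 8.52 at 0 h and differed by 1.13 ± 0.37 (SE), while its 2 brighter probe sets differed by 0.43 and 0.21. Among the lower genes, HAS2, which makes the hyaluronan of the dermis, read 6.96, 7.06, 7.78, 6.96, 7.36 and 7.92 at 24 h and 7.79, 8.15, 7.63, 8.04 and 8.73 at 0 h. Its difference was -0.73 ± 0.21 (SE, adjusted p of 0.582 by limma), with animals 03 and 06 at 24 h inside the range at 0 h. On this probe set HAS2 lay below the array median on 3 of 6 arrays at 24 h and on 0 of 5 at 0 h. The other 2 probe sets of HAS2 disagreed, with 0.53 and, for the brightest, -0.10. FBLN1, a glycoprotein of elastic fibres and basement membranes, read 10.70, 11.05, 11.15, 11.21, 9.64 and 10.37 at 24 h and 11.22, 11.80, 11.76, 11.29 and 11.23 at 0 h. On that probe set the groups did not overlap, with a difference of -0.77 ± 0.34 (SE) and the 24 h array of animal 05 lowest. On a brighter one they overlapped, with a difference of -0.23 ± 0.23 (SE).

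ST6GAL1, which adds terminal sialic acid to glycoproteins, differed by -1.24 ± 0.54 (SE) and GALNT17, of the family that starts mucin-type O-glycans, by -0.88 ± 0.31 (SE), or -1.34 without the 3 arrays of uncertain number. GALNT17 lay below the array median on 4 of 6 arrays at 24 h and on 0 of 5 at 0 h. ST6GAL1 lay below the array median on all 6 arrays at 24 h and on 4 of 5 at 0 h, so its difference is between values near background. TMEM92, a membrane protein, differed by -0.91 ± 0.36 (SE) and by -0.55 without the 24 h array of animal 06. It too lay below the array median on all 6 arrays at 24 h and on 4 of 5 at 0 h. GIT2, an adaptor of cell migration, differed by -0.73, by -0.26 without the 3 arrays of uncertain number, and by -0.13 on a brighter probe set. On the first probe set it lay below the array median on all 6 arrays at 24 h and on 3 of 5 at 0 h.

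MMP14, the membrane-bound protease that cleaves collagen and activates MMP2, depended on which 0 h arrays were read. It read 6.11, 7.9998, 6.95, 6.84, 7.28 and 7.19 at 24 h and 3.32, 3.56, 6.76, 6.48 and 7.84 at 0 h. The 0 h arrays of animals 01 and 02 lay far below the other 9, which overlapped. MMP14 lay below the array median on 4 of 5 arrays at 0 h and on 4 of 6 at 24 h. Its low values at 0 h are thus near background. The difference was 1.47 ± 0.59 (SE, adjusted p of 1.0 by limma) over all arrays, and 0.90 without the 0 h array of animal 01. Without the 3 arrays of uncertain number it was 3.62, with an adjusted p of 0.00146 by limma. In animals 01 and 02, whose numbers held up, MMP14 was higher at 24 h in both.

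Leaving out those 3 arrays, a fit added after the data were seen, called 4 probe sets in all. The others were IPO11, a nuclear import receptor, TNPO2, another import receptor, and BtAffx.29968.1.S1_at, which has no symbol in the annotation. IPO11 read 6.82, 7.06, 7.33, 6.94, 6.62 and 6.79 at 24 h and 4.08, 4.03, 6.96, 7.44 and 6.89 at 0 h. TNPO2 read 6.72, 6.75, 7.52, 6.86, 6.70 and 7.35 at 24 h and 5.52, 4.39, 7.41, 6.58 and 6.93 at 0 h. Both were lowest on the 0 h arrays of animals 01 and 02. The medians of those arrays were 7.17 and 7.23, so these low values are near background. Array medians at 24 h lay between 7.17 and 7.36, and most 24 h values of both genes lay below the median of their own array. IPO11 and TNPO2 are named after their values were seen, and their differences over all arrays were 1.05 ± 0.47 and 0.82 ± 0.37 (SE). The probe set BtAffx.29968.1.S1_at read 12.09, 13.54, 13.11, 12.97, 12.42 and 13.64 at 24 h and 8.20, 7.99, 11.09, 10.45 and 13.13 at 0 h. Only the 0 h array of animal 05 lay within the range at 24 h. Its difference was 2.79 ± 0.68 (SE, adjusted p of 0.493 by limma).

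The smallest p of all belonged to Bt.23026.1.A1_at, again without a symbol. It read 10.15, 10.47, 9.01, 9.67, 9.72 and 9.49 at 24 h and 8.70, 8.11, 8.26, 7.53 and 9.31 at 0 h. The 24 h array of animal 03 lay within the range at 0 h, and the other 5 lay above it. The difference was 1.37 ± 0.28 (SE), with an unadjusted p of 3.59e-05 and an adjusted p of 0.447 by limma. Without the 0 h array of animal 05, it and BtAffx.29968.1.S1_at both had an adjusted p of 0.029 and were the 2 probe sets called.

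Heat shock proteins and their cochaperones, which fold and rescue proteins and are made in response to stress, were measured lower at 24 h in every case. Of 15 measured genes 15 were lower and 0 higher, with a median of -0.40, beside a median of -0.01 over all genes. limma called 0 of them; 3 had an unadjusted p under 0.05, where 2.25% of all genes did so in the lower direction. The small chaperone HSPB8, a partner of BAG3, read 11.70, 12.56, 11.88, 11.71, 13.47 and 12.38 at 24 h and 13.47, 12.51, 12.53, 12.42 and 13.26 at 0 h. Animal 05 at 24 h was as high as the highest array at 0 h, and the groups overlapped. The inducible HSP70 gene HSPA1A differed by -0.81 ± 0.46 (SE), the nucleotide exchange factor HSPH1 by -0.81 ± 0.55 (SE) and the cochaperone BAG3 by -0.69 ± 0.44 (SE). Their intervals all reached past 0. The constitutive members HSPA8 (-0.40), HSP90AB1 (-0.18) and HSP90AA1 (-0.25), the mitochondrial pair HSPD1 (-0.25) and HSPE1 (-0.25) and the ER members HSPA5 (-0.23) and HSP90B1 (-0.19) differed by less. Members beyond HSPB1 and HSPB8 are named after their values were seen, as the whole list.

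The list mean in each array showed the spread behind this. It was 12.06, 12.40, 12.18, 11.95, 13.05 and 11.90 in animals 01 to 06 at 24 h, and 13.19, 12.15, 12.60, 12.56 and 12.98 in animals 01 to 05 at 0 h. Animal 05 at 24 h was higher than 4 of the 5 arrays at 0 h, and animal 02 at 0 h was lower than 3 of the 6 at 24 h. In animal 01 the mean was 12.06 at 24 h and 13.19 at 0 h, and in animal 02 it was 12.40 at 24 h and 12.15 at 0 h, so the 2 animals whose numbers held up differed in opposite directions. Over the alternative settings the median ran between -0.53 and -0.28, with 14 or 15 of the genes lower.

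Cochaperones, some of them outside this list, also ranked high by the other rules. Besides STIP1, the HSP90 partner CHORDC1 read 8.74, 8.57, 8.70, 7.50, 9.15 and 7.78 at 24 h and 9.71, 8.33, 9.18, 8.76 and 9.74 at 0 h and differed by -0.73 ± 0.33 (SE). A probe set of DNAJB1, the cochaperone that works with inducible HSP70, differed by -0.82 ± 0.37 (SE), and the brighter one that stood for the gene in the list by -0.61. RBM3, an RNA-binding protein made in the cold and chosen here after its value was seen, averaged 12.33 ± 0.22 at 24 h and 11.76 ± 0.26 at 0 h (SD, n = 6 and 5). Its groups did not overlap, and it was higher by 0.58 ± 0.16 (SE, unadjusted p of 0.00134). CIRBP, the other cold-induced RNA-binding protein, was also chosen after its value was seen and differed by 0.24 ± 0.14 (SE), or 0.05 without the 3 arrays of uncertain number.

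**Figure D4:**
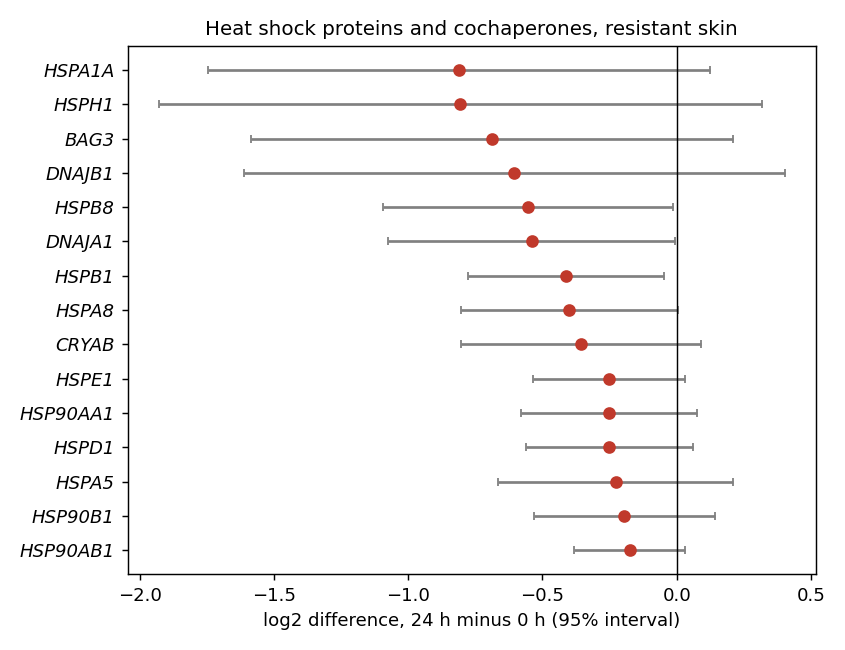
Log2 difference of each of the 15 measured heat shock proteins and cochaperones in resistant skin, 24 h minus 0 h, with its 95% interval from the fit. All 15 points lie below 0; the intervals of HSPB1, HSPB8 and DNAJA1 stay below it.

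Immediate early genes, which answer stress and wounding within minutes, had 5 of 18 measured members higher and 13 lower, with a median of -0.17 and 0 at an unadjusted p under 0.05. JUND, of the AP-1 family, differed by -0.28 ± 0.17 (SE) and MYC by -0.30 ± 0.20 (SE). In the unfolded protein response list 5 of 15 were higher and 10 lower, with a median of -0.06. Its transcription factor ATF4 read 12.03, 12.26, 12.20, 12.25, 12.25 and 12.21 at 24 h and 12.64, 12.44, 12.39, 12.69 and 12.55 at 0 h. The groups did not overlap, and the difference was -0.34 ± 0.12 (SE, unadjusted p of 0.00971). PDIA4, an ER disulphide isomerase, differed by -0.29 ± 0.14 (SE).

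Of the genes of the inflammatory reaction, limma called 0 members of any immune list. The neutrophil and calgranulin list had 6 of 7 measured genes higher, with a median of 0.45, the highest median of the 39 lists with at least 5 measured genes. None of its members had an unadjusted p under 0.05, and the median without the 3 arrays of uncertain number was 0.73. The chitinase-like CHI3L1 read 9.65, 8.52, 10.51, 9.56, 9.48 and 8.08 at 24 h and 8.06, 8.62, 7.90, 9.82 and 7.87 at 0 h, with overlap between the groups and a difference of 0.85 ± 0.49 (SE). The calgranulins S100A12, S100A9 and S100A8, carried by neutrophils and by stressed keratinocytes, differed by 0.45 ± 0.38, 0.29 ± 0.30 and 0.20 ± 0.40 (SE). PGLYRP1, a granule protein that binds bacterial walls, differed by 1.47 ± 1.11 (SE), and the Fc receptor FCGR3A was the member measured lower, by -0.76 ± 0.40 (SE). Apart from CHI3L1 and FCGR3A these are named after their values were seen.

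Among cytokines and chemokines, 5 of 10 were higher and 5 lower. PTX3, a soluble pattern recognition molecule made by stromal cells in inflammation, read 8.64, 7.69, 7.80, 7.45, 8.56 and 8.09 at 24 h and 7.59, 7.11, 7.38, 6.34 and 7.08 at 0 h. All but 1 of the arrays at 24 h lay above every array at 0 h. PTX3 lay below the array median on 3 of 5 arrays at 0 h and on 0 of 6 at 24 h. The difference was 0.93 ± 0.34 (SE, unadjusted p of 0.00961, adjusted p of 0.947 by limma). CCL3, a chemokine of monocytes and neutrophils, differed by -0.50 ± 0.33 (SE), and by 0.09 ± 0.41 (SE) on a dimmer probe set. CXCL5 (0.88 ± 0.67 SE) and CCL2 (0.55 ± 0.63 SE), which draw neutrophils and monocytes and are named after their values were seen, had wide errors.

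In the interferon lists most genes were measured higher. All 8 measured interferon-gamma targets were higher, with a median of 0.24, led by the immunoproteasome subunits PSMB8 (0.44 ± 0.26 SE) and PSMB9 (0.26 ± 0.25 SE). Of 12 type I interferon genes 10 were higher, with a median of 0.17 and IFI44L at 0.46 ± 0.31 (SE). None of these 20 genes had an unadjusted p under 0.05. Members of such lists are regulated together, so that their counts are not counts of independent genes.

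Other leukocyte lists had medians on either side of 0. The macrophage list had 7 of 14 higher and 7 lower, with a median of -0.01 (0.00 after quantile normalization), and the complement chains C1QA and C1QC, made by macrophages, differed by -0.36 ± 0.40 and -0.36 ± 0.33 (SE). T and natural killer cell genes were higher in 2 of 11 and lower in 9, with a median of -0.14; CD2 and the granule protein GNLY differed by -0.33 ± 0.34 and -0.39 ± 0.38 (SE). For mast cells, basophils and eosinophils, 2 of 5 were higher, with the eotaxin receptor CCR3 at -0.53 ± 0.53 (SE) and TPSB2 at 0.38 ± 0.62 (SE). The 95% interval of TPSB2 was -0.89 to 1.65, which holds a 2-fold higher level. B and plasma cell genes had 3 measured members, of which 2 were higher, with a median of 0.38 and the joining chain JCHAIN at 0.38 ± 0.41 (SE). Complement genes were higher in 5 of 16 and lower in 11, with a median of -0.18 and factor D, CFD, at -0.39 ± 0.32 (SE). Without the 3 arrays of uncertain number the medians of these lists were lower: -0.38 for macrophages, -0.19 for T and natural killer cells, -0.82 for mast cells, basophils and eosinophils, and -0.43 for complement.

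Lists of vascular and sensory mediators also held 0 calls by limma. Eicosanoid synthesis genes were lower in 6 of 9, with a median of -0.23 and ALOX5AP, which presents arachidonate for leukotriene synthesis, at -0.47 ± 0.36 (SE, 95% interval of -1.21 to 0.27). In the itch, histamine and kinin list 4 of 6 were lower. Its histamine receptor HRH1 read 9.58, 10.23, 9.18, 10.46, 9.49 and 9.82 at 24 h and 10.63, 10.59, 10.48, 9.98 and 10.21 at 0 h, a difference of -0.58 ± 0.30 (SE, unadjusted p of 0.0611) with a 95% interval of -1.20 to 0.03. The groups overlapped, with animal 04 at 24 h among the high values at 0 h. Of 15 coagulation and fibrinolysis genes 8 were higher and 7 lower; thrombomodulin, THBD, which turns thrombin to an anticoagulant role, differed by -0.35 ± 0.18 (SE), or -0.62 without the 3 arrays of uncertain number. That list's median was 0.05, or -0.06 without the 3 arrays of uncertain number. Endothelial genes were higher in 5 of 12 and lower in 7, with ANGPT2 at 0.30 ± 0.31 (SE). Leukocyte adhesion genes were likewise higher in 5 of 12, with a median of -0.06.

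**Figure D5:**
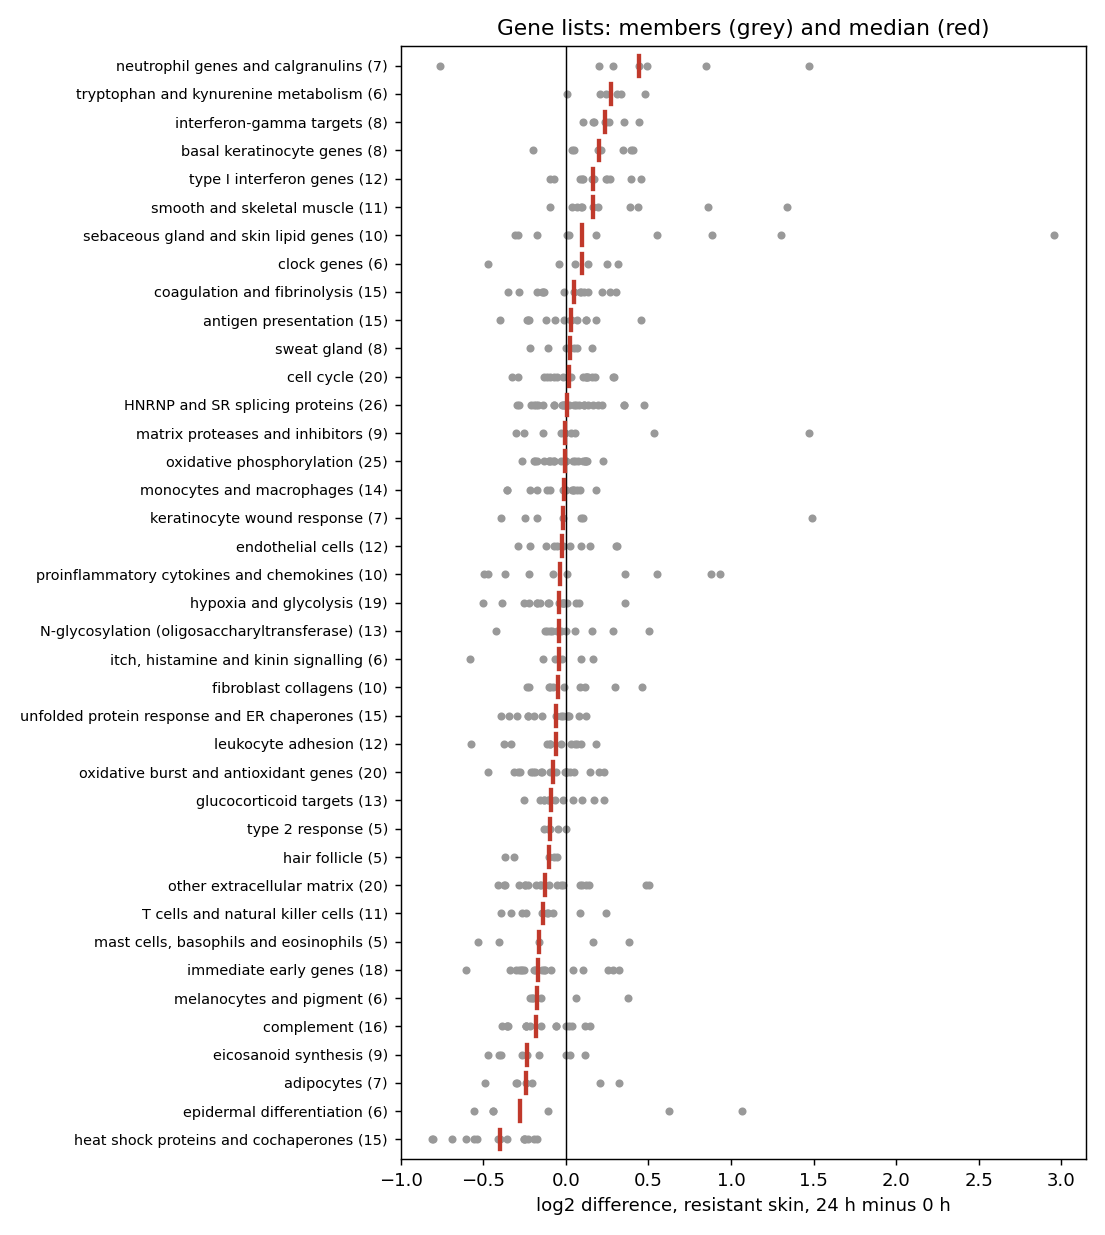
Log2 difference in resistant skin, 24 h minus 0 h, of the measured members (grey points) and median (red bar) of each of the 39 gene lists with at least 5 measured genes, the number in brackets. Medians lie between -0.40 for heat shock proteins and cochaperones and 0.45 for neutrophil genes and calgranulins, and most lists straddle 0.

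Epidermal and appendage genes held 0 calls by limma. The mean of the basal keratinocyte list ran from 11.14 to 11.57 at 24 h and from 11.08 to 11.26 at 0 h. Basal keratinocyte genes were higher in 7 of 8, with a median of 0.20. ITGB4, the hemidesmosome integrin chain that anchors the epidermis, had the smallest p among them, at 0.40 ± 0.23 (SE). It lay below the array median on 5 of 6 arrays at 24 h and on all 5 at 0 h. In epidermal differentiation 2 of 6 were higher and the median was -0.28, or -0.02 without the 3 arrays of uncertain number. The cornified envelope crosslinker TGM1 differed by -0.44 ± 0.31 (SE). S100A7, an antimicrobial protein of stressed keratinocytes, read 8.65, 10.36, 9.46, 6.48, 9.24 and 9.41 at 24 h and 6.81, 6.88, 6.13, 11.32 and 6.07 at 0 h. The 0 h array of animal 04 was the highest of all 11 and the other 4 at 0 h were low. Its difference was 1.49 ± 1.10 (SE), and 2.46 without that array. Hair follicle genes were lower in 5 of 5, with a median of -0.10 and the hair keratin regulator HOXC13 at -0.37 ± 0.32 (SE). Sweat gland genes had a median of 0.02, with 6 of 8 higher. Adipocyte genes had a median of -0.24, with 5 of 7 lower. Melanocyte and pigment genes had a median of -0.17, but of 0.12 without the 3 arrays of uncertain number, and it ran between -0.79 and 0.38 over the alternative settings.

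In the dermal lists limma called 0 genes. Fibroblast collagens had 4 of 10 higher and 6 lower, with a median of -0.05 (-0.36 without the 3 arrays of uncertain number) and COL6A2 at 0.46 ± 0.33 (SE). COL6A2 lay below the array median on all 6 arrays at 24 h and all 5 at 0 h. Other matrix genes were lower in 14 of 20, with a median of -0.13 (-0.22 without the 3 arrays of uncertain number). The proteoglycan VCAN differed by 0.50 ± 0.32 (SE) and the microfibril protein MFAP2 by -0.37 ± 0.23 (SE). Besides MMP14, matrix proteases held MMP19 at 0.54 ± 0.29 (SE), or 0.12 without the 3 arrays of uncertain number. Smooth and skeletal muscle genes were higher in 10 of 11, with a median of 0.16, or -0.05 without the 3 arrays of uncertain number. In that list DES differed most, and the skeletal creatine kinase CKM differed by 0.43 ± 0.34 (SE).

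Lists of cell machinery held a few genes of small p. Apart from tryptophan and kynurenine genes, their medians lay within 0.10 of 0. The splicing list of HNRNP and SR proteins had 13 of 26 higher and 13 lower, with a median of 0.01 (-0.01 with arrays centred on their median). In it 4 genes had an unadjusted p under 0.05, all higher, where 2.32% of all genes did so in that direction. After HNRNPD came SRSF5, a serine- and arginine-rich splicing factor, at 0.35 ± 0.13 (SE), or 0.68 without the 3 arrays of uncertain number. N-glycosylation genes had 4 of 13 higher: MAGT1 was alone in having an unadjusted p under 0.05, and DDOST, another subunit of the same enzyme, differed by -0.42 ± 0.23 (SE). Tryptophan and kynurenine genes were higher in 6 of 6, with a median of 0.28, yet KMO, the next member by p after KYAT3, had an SE of 0.45 around its 0.31. Hypoxia and glycolysis genes were lower in 15 of 19, with a median of -0.04; the collagen prolyl hydroxylase P4HA1 differed by -0.50 ± 0.20 (SE, unadjusted p of 0.0203). In oxidative phosphorylation, SDHB of complex II differed by -0.19 ± 0.09 (SE), with no overlap of the groups and a list median of -0.01. Clock genes had the repressor BHLHE40 at -0.47 ± 0.19 (SE, unadjusted p of 0.0176) and HLF at 0.25 ± 0.13 (SE), or 0.07 without the 3 arrays of uncertain number. Cell cycle (12 of 20 higher), antigen presentation (8 of 15), antioxidant (8 of 20), glucocorticoid target (4 of 13), type 2 (1 of 5) and keratinocyte wound (3 of 7) lists had medians within 0.10 of 0. Leaving out the 3 arrays of uncertain number gave medians of 0.16 for tryptophan and kynurenine genes, -0.18 for hypoxia and glycolysis, -0.16 for clock genes, 0.15 for the cell cycle, -0.18 for antioxidant genes, -0.40 for type 2 genes and 0.10 for the keratinocyte wound list. The cell cycle kinase AURKB differed by -0.33 ± 0.18 (SE) and, on a dimmer probe set, by 0.26 ± 0.31 (SE). The MHC class I light chain B2M differed by 0.12 ± 0.12, the peroxidase PRDX2 by -0.29 ± 0.17, the lipocortin ANXA1 by 0.17 ± 0.08 and STAT6, which carries interleukin 4 signals, by -0.13 ± 0.14.

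Whether the 24 h response of resistant skin differed from that of susceptible skin was tested as the difference of both responses. limma called 0 of 13809 probe sets. An unadjusted p under 0.05 was found for 255 (1.85%), of which 187 were higher in the resistant response and 68 lower. With each array centred on its median the split was 123 higher and 121 lower. The smallest adjusted p was 1.0. The 95% interval of such a difference reached a median of 0.60 to either side, with 3 susceptible arrays at 0 h. The smallest p belonged to Bt.23026.1.A1_at, with 1.37 in resistant and -0.23 in susceptible skin and a difference of 1.60 ± 0.43 (SE, unadjusted p of 0.000895). Among probe sets with a symbol it belonged to SEMA4A, a semaphorin of immune cells and epithelium, with 0.19 in resistant and -0.76 in susceptible skin and a difference of 0.95 ± 0.28 (SE, unadjusted p of 0.00193). The deubiquitinase USP28 differed by 0.50 in resistant and -0.43 in susceptible skin, the centriole protein SPICE1 by 0.21 and -0.46, and the collagen hydroxylase P3H2 by 0.33 and -1.18. In resistant skin without the 3 arrays of uncertain number, USP28 differed by 0.87 and P3H2 by 0.11. MFF, on the probe set described above, had 1.22 in resistant and -0.08 in susceptible skin, a difference of 1.31 ± 0.42 (SE, unadjusted p of 0.00442 by limma). Its mean was 6.25 in resistant skin at 0 h, 7.48 at 24 h and 7.20 at 48 h. In susceptible skin it was 7.13 at 0 h and 7.04 at 24 h. For Bt.23026.1.A1_at the resistant means were 8.38, 9.75 and 9.55 at 0, 24 and 48 h. The susceptible means were 9.82 and 9.60 at 0 and 24 h. In both, resistant skin at 0 h was the lowest of these groups.

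Some of the genes that were highest in animals 01, 03 and 06 had measured differences of opposite sign in resistant and susceptible skin. FAR2 differed by 2.96 in resistant and -1.61 ± 1.32 (SE) in susceptible skin, FGFBP1 by 3.89 and -2.03 ± 1.78, PLIN2 by 1.30 and -1.05 ± 0.71, and ACSL1 by 0.88 and -0.53 ± 0.39. KRT79 differed by 2.84 and -1.985 ± 1.55 (SE), and ELOVL4 by 1.07 and -0.98 ± 0.68. The unadjusted p by limma of the difference between responses was 0.0136 for FAR2, 0.0172 for FGFBP1, 0.0188 for PLIN2 and 0.00948 for ACSL1. It was 0.0247 for KRT79 and 0.0293 for ELOVL4, and none passed adjustment. These genes were set side by side after their values were seen. At 0 h the mean of FAR2 was 8.68 in susceptible skin (5.64 to 10.5 over 3 arrays), against 8.79 in resistant skin at 24 h. For FGFBP1 it was 8.86 (5.24 to 10.7), against 8.83. Of the 10 measured genes of the sebaceous and skin lipid list, 7 were higher in resistant and 1 in susceptible skin. EPHX1 differed by -0.72 in resistant and 0.09 in susceptible skin (unadjusted p of the difference 0.0116). Heat shock proteins had a median of -0.40 in resistant and -0.26 in susceptible skin, with 15 and 14 of 15 lower.

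At 48 h, set against the same 5 arrays at 0 h, some of these genes had like values, and the differences at both times share those 5 arrays. Differences at 24 h and at 48 h, each from 0 h, were -0.43 and -0.36 for SMU1, -0.61 and -0.52 for STIP1, -0.49 and -0.49 for RBM4 and -0.36 and -0.43 for ADPGK. For the higher genes they were 0.48 and 0.47 for KYAT3, 0.41 and 0.40 for TMEM167B and 2.96 and 2.62 for FAR2. EPHX1 had -0.72 at 24 h and -0.01 at 48 h, EIF3D -0.32 and -0.04, SNURF -0.42 and -0.11 and MAPK6 1.13 and -0.23. The macrophage list had 7 of 14 genes higher at 24 h and 14 of 14 at 48 h, with medians of -0.01 and 0.91. T and natural killer cell genes were higher in 2 of 11 at 24 h and 10 of 11 at 48 h, with medians of -0.14 and 0.16. Genes of mast cells, basophils and eosinophils were higher in 2 of 5 at 24 h and 5 of 5 at 48 h, with medians of -0.16 and 0.83.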

How the data were processed

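Total RNA of 30 skin biopsies was read on an Affymetrix bovine expression array, per the labels. The authors deposited log2 signals of 24128 probe sets, made with MAS5 per the submitters' processing notes, with no version stated in the sources used here. The linear signals of every array have a mean of 500 after 2% is trimmed from each tail, which is how that method scales arrays, so differences in total RNA are removed. MAS5 gives one signal per probe set and no depth; the number of arrays limits the precision. No genome build is given, and no coordinates or sequences are used here.

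Of 24016 probe sets other than controls, 13809 were kept, those at or above the array median in at least 3 of the 30 arrays. Probe sets were named from the platform annotation: 13292 had 1 symbol, 86 several and 10638 none. A gene was read by its kept probe set with the highest mean over the arrays, which gave 7016 genes for the lists; genes named for a small p or a large difference are given on the probe set that met the rule, with their other kept probe sets beside them. Groups of phenotype and time were fitted as 6 means over the 30 arrays by lmFit of limma 3.58.1 under R 4.3.3, and eBayes then moderated the spread along a trend with intensity. The contrast was resistant 24 h minus resistant 0 h, with a two-sided p adjusted by Benjamini-Hochberg over all kept probe sets and a threshold of 0.05. SE and 95% intervals come from that fit, and SD is over arrays. The fit was tried on simulated data with the real spreads and the resistant 24 h mean set to that at 0 h. Differences of 1 and of 2 were then added to 100 probe sets each. It recovered 70 and 95 of these with 12 false calls, and called 0 with nothing added. Simulated probe sets varied independently, which real ones need not do. Python 3.11.15 and matplotlib 3.10.9 served for the figures.

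Genes named in the text are those with 1 symbol that had the 12 smallest p in each direction, the 8 largest differences in each direction among those with an unadjusted p under 0.05, the 2 smallest p of each gene list, or the 5 smallest p in the difference of the 24 h responses; 118 genes met the rule, and others are said to be chosen after their values were seen. The comparison and the gene lists were chosen with earlier results of these data known, so lists are described by counts and medians and not tested. Alternatives tried were arrays centred on their median, quantile normalization, an offset of 16 on the linear signal, no filter and a stricter one (5 arrays), the animal number as a block, no intensity trend, array weights, terms for XIST and for the 3' to 5' difference of control probe sets, the 11 arrays alone, the mean of a gene's probe sets, an added 2-fold threshold, and leaving out arrays. The term for the 3' to 5' difference and the fit without 3 arrays at 0 h were added after the data were seen.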

Additional observations from a re-analysis of the deposited data

Results flagged for a closer look

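Of 204 sets of array values checked, each a gene or list mean in 1 group, 10 had 1 array far from the rest of its group; chance gives about 1 set in 20, which is 10.2 of 204. At 24 h there were 3. SIVA1 read 8.40 in animal 05, with the next array at 8.88. ATF4 read 12.03 in animal 01, with the next array at 12.20. TMEM92 read 4.28 in animal 06, with the next array at 6.20.

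At 0 h there were 5 genes. USP15 read 6.71 on the array of animal 04, and the next lowest was 7.51. RPS12 read 9.67 on the array of animal 05, and the next highest was 8.98. EPHX1 read 9.49 on that array of animal 05, and the next lowest was 10.3. PLIN2 read 9.60 in animal 01, and the next highest was 8.89. S100A7 read 11.3 on the array of animal 04, and the next highest was 6.88. The numbers 04 and 05 at 0 h are among the uncertain ones.

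Means of 2 lists at 0 h were also set apart by 1 array. The adipocyte list averaged 8.93 on the array of animal 04, with the next lowest at 9.03. The list of the unfolded protein response and ER chaperones averaged 11.1 in animal 02, with the next lowest at 11.4.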

How the results depend on the processing

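At an adjusted p under 0.05, the count of probe sets called in resistant skin at 24 h against 0 h was 0 by limma, 0 to 2 when 1 array was left out (2 without the 0 h array of animal 05) and 4 without the 3 arrays of uncertain number, all higher at 24 h; the other alternatives called 0. Counts at an unadjusted p under 0.05 ran between 496 and 1113, beside 652. Groups did not overlap in 94 probe sets, in 143 with no filter, in 120 to 204 when 1 array was left out and in 1264 without the 3 arrays; the last 2 settings compare fewer arrays. The difference of the responses called 0 throughout, with 255 at an unadjusted p under 0.05, 679 with no filter, 524 with array weights and 401 without the 3 arrays. The cause of these changes was not tested.

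With the animal number as a replicate block the fit called 0 whether the block was random (correlation of 0.14), fixed, or fixed with 0 h numbers 03, 04 and 05 read as 04, 05 and 06. Unadjusted counts were 857, 928 and 1055 in that order, and the last gave 397 for the difference of the responses. Numbers were not used as pairs, since 01 and 02 alone correlated above 0.1 and not every array correlated best with its own number.

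No value of 63 named genes and probe sets changed sign over the alternatives run; of these MMP14 alone passed the threshold, at 3.62 without the 3 arrays. IPO11, TNPO2 and the 2 probe sets without a symbol are not among the 63. Leaving out 1 array moved TMEM92, MMP14, HLF, S100A7, SEMA4A, P3H2 and CIRBP by over 1.5 times. Clock genes had a list median of 0.10, but -0.07 without the 0 h array of animal 05. For dim genes, signals near or below the array median limit what a difference can show. FCGR3A and GNLY, for example, lay below it on every array at 24 h and at 0 h.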
